A study of Mus musculus with 100 samples.

Results

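Knee joints of MRL/MpJ and C57BL/6 mice were compared before any injury, in the 8 libraries that the labels place at 0-day in these strains (4 per strain), of 100 libraries in the series. Members were chosen by strain and time alone, and all 17310 genes of the count table entered the comparison. Both groups were 10 weeks old, uninjured and in the same experimental batch of the labels. MRL/MpJ is labelled as not susceptible to post-traumatic osteoarthritis and C57BL/6 as moderately susceptible. The study's methods give the C57BL/6 mice as C57BL/6J. The tissue was the entire knee together with the adjoining bone ends and a little attached soft tissue, stored in RNAlater, and poly(A)-enriched RNA was sequenced, so bone, marrow, cartilage, ligament, synovium and some muscle were read together. The study injured the right knee of other mice by compression and sampled both knees on 3 later occasions, labelled 1-day, 1-week and 2-weeks. Its uninjured contralateral knees of these strains, 29 libraries in all, are set beside the 0-day values further on. The labels do not say that replicates of a group came from separate animals, so p-values measure the spread between these libraries.

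A synovial joint is held by collagen fibres whose spacing is set by small leucine-rich proteoglycans, cushioned by cartilage rich in type II collagen and aggrecan, and lubricated by the synovium. Marrow inside the bone ends adds blood-forming and immune cells, which respond to interferons by inducing a shared set of antiviral genes. MRL/MpJ mice are known for closing wounds with little scar, and inbred strains also differ at many loci in the genes they carry, such as the major histocompatibility complex (MHC).

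Total counts ranged from 6182016 to 10808962 in the MRL/MpJ libraries and from 9596850 to 11946239 in the C57BL/6 libraries, and 16596 to 16911 and 16945 to 17023 genes were above 0. A group of 4 such libraries allows, from a count of 0, a level of up to 0.095 CPM (counts scaled to library size, with TMM factors) in MRL/MpJ and 0.0663 CPM in C57BL/6, for counting error only. All 8 libraries held transcripts of Y-linked genes and little Xist, the RNA that silences an X chromosome in females, with 3.32 to 4.78 CPM in MRL/MpJ and 1.15 to 2.52 CPM in C57BL/6. Cartilage, bone, synovial, tendon, muscle and marrow markers were present in every library, as the labelled tissue implies. Of 10 skin genes, Krt10 and Krt78 were in the table, and they did not move together. Krt10 was not called (log2 fold change -0.19). Krt78 had 0 counts in C57BL/6 and 1.64, 2.63, 1.49 and 0.824 CPM in MRL/MpJ, at least 26.3-fold higher.

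MRL/MpJ differed from C57BL/6 in 2751 genes (15.9% of those tested; edgeR quasi-likelihood test, adjusted p below 0.05 and fold above 1.5). Of these, 1083 genes were higher in MRL/MpJ (6.26%) and 1668 were lower (9.64%), while the median log2 fold change of all genes was -0.014. The levels of the strains did not overlap in 34.5% of all genes. Muscle and red cell genes were higher in MRL/MpJ, and collagens, proteoglycans, cartilage, tendon, B cell and interferon-stimulated genes were lower. The plot of list members shows each of these groups. Adding 2 factors estimated by RUVg from 25 housekeeping genes left 103 genes higher and 187 lower. The second of these factors followed strain, which accounted for 94.8% of its variance over the 8 libraries, so that strain and this factor can hardly be told apart. With it, 59 rather than 307 members of the gene lists were called. Calls in the same direction then remained in the wound matrix, TGF-beta and BMP, IGF, neutrophil, macrophage, complement, cytokine, interferon-stimulated, Ifi200, Trim5, MHC, erythroid, haem synthesis, antioxidant, glucocorticoid, ribosomal protein and known strain-variable lists and in sets named by the study, and 0 genes called without it remained in any other list.

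**Figure D1:**
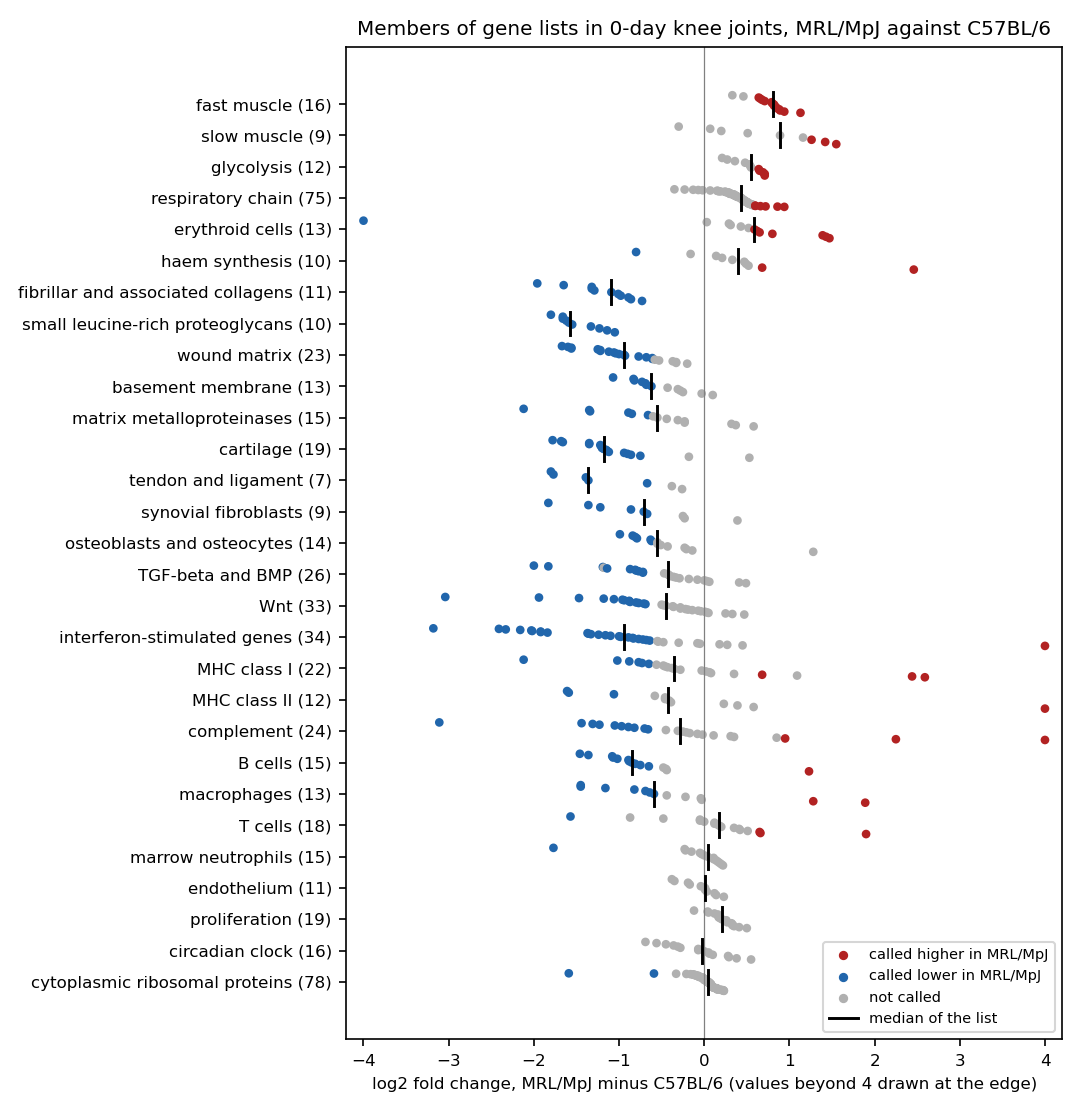
Each point is 1 gene, placed by its log2 fold change in 0-day joints (MRL/MpJ minus C57BL/6, horizontal axis) within its gene list (rows, with the number of genes listed), and black bars mark list medians. Red points were called higher in MRL/MpJ, blue points lower and grey points neither; fast muscle lies to the right with a median of 0.81 and small leucine-rich proteoglycans to the left with a median of -1.57.

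Skeletal muscle genes were higher in MRL/MpJ joints. Of 16 genes of fast muscle fibres, 14 were called higher and 0 lower, against 6.26% of all genes, with a median log2 fold change of 0.81. Adding 2 RUVg factors left 0 of these 14 called, and 2 were called by a test against the fold threshold (glmTreat). The summed level of the list was 97100 to 122000 CPM in MRL/MpJ and 47600 to 75900 CPM in C57BL/6. These 16 genes held 9.71% to 11.7% of all counts in the MRL/MpJ libraries and 5.11% to 7.85% in the C57BL/6 libraries. In bulk tissue, fewer cells of a type and less RNA per cell cannot be told apart, here or in any group below.

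Myh4, the myosin heavy chain of the fastest fibres, stood at 33400, 29900, 36300 and 33900 CPM in MRL/MpJ replicates 1 to 4. In C57BL/6 it stood at 21200, 17600, 17200 and 13600 CPM. Every MRL/MpJ library was above every C57BL/6 library, and the log2 fold change was 0.94 ± 0.13 (SE; edgeR adjusted p 1.58e-05). Ryr1, the calcium release channel of muscle, had the highest fold change of the list, with 2350, 1900, 2400 and 2030 CPM against 1220, 999, 1110 and 638 CPM (log2 fold change 1.13 ± 0.14). The values of Myh4 and Ryr1 with 2 RUVg factors were 0.37 and 0.21. Myl1, a fast myosin light chain, was not called (0.33, adjusted p 0.0636).

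Of 9 genes of slow fibres, 3 were higher. Tnnt1, slow troponin T, was at 111, 62.2, 47.9 and 72.5 CPM in MRL/MpJ and at 23.1, 21.5, 34.2 and 22.3 CPM in C57BL/6 (1.55 ± 0.28). Myl3, a slow myosin light chain, was at 57.2, 36.4, 22.4 and 32.3 CPM against 13.3, 12, 21.3 and 10 CPM (1.42 ± 0.29). Both genes varied more between libraries than the fast fibre genes, and their groups came close without overlapping. Myl3 was at -0.23 with 2 RUVg factors and not called.

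Some glycolysis genes were higher as well. Of 12 glycolysis genes, 5 were called higher and 0 lower, with a median of 0.55, and Pfkm, the muscle phosphofructokinase, was at 2290, 1690, 2160 and 1830 CPM against 1480, 1240, 1290 and 915 CPM (0.69 ± 0.12). Without C57BL/6 replicate 4, which has the lowest muscle level, 2 glycolysis genes were called and Pfkm was not (0.57). Without MRL/MpJ replicate 2 or C57BL/6 replicate 1, 8 were called. Respiratory chain genes had a median of 0.43, under the fold threshold, and 6 of 75 were called higher, near the 6.26% of all genes. The count of 6 was 21 without MRL/MpJ replicate 2, 11 without MRL/MpJ replicate 4 or C57BL/6 replicate 1, and 15 without C57BL/6 replicate 3. By adjusted p alone 57 were higher and 1 lower. In 51 of the 75 every MRL/MpJ library was above every C57BL/6 library, against 15.7% of all genes, and in 1 every one was below. Their summed level was 14500 to 17700 CPM in MRL/MpJ and 10300 to 13100 CPM in C57BL/6.

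Fbxo32 and Trim63, the ubiquitin ligases known from muscle wasting, were both higher. Fbxo32 was at 192, 147, 227 and 201 CPM against 105, 98.3, 127 and 76 CPM (0.91 ± 0.2). Trim63 was at 83.8, 65.2, 98.4 and 88 CPM against 57.5, 49, 57.5 and 43.9 CPM (0.68 ± 0.14). Zbtb16, a transcription factor that glucocorticoids induce, was at 60.1, 46.6, 58.1 and 50.1 CPM against 22.3, 21.8, 24.2 and 24 CPM (1.22 ± 0.12). These 3 genes were the called members of a list of 11 glucocorticoid and fasting genes, which had a median of -0.16, and Fkbp5 and Tsc22d3, common readouts of glucocorticoid action, were not called (-0.16 and -0.02). With 1 RUVg factor Fbxo32 and Trim63 were not called (0.52 and 0.41), and the list had 1 gene higher and 4 lower. Ppargc1a, a coactivator of mitochondrial genes, was also higher, at 36.7, 21.7, 30 and 29 CPM against 18.7, 14.9, 15.8 and 12.8 CPM (0.92 ± 0.17).

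Collagens and the proteoglycans that bind them were lower in MRL/MpJ in every gene listed. All 11 fibrillar and associated collagens were called lower, against 9.64% of all genes, with a median log2 fold change of -1.09. Their summed level was 12200 to 15500 CPM in MRL/MpJ and 24400 to 32000 CPM in C57BL/6. All 10 small leucine-rich proteoglycans were lower, with a median of -1.57. In both lists every MRL/MpJ library was below every C57BL/6 library for every gene. The muscle markers given above moved with this difference across strains, and their part in it was not tested. With 2 RUVg factors 0 of the 11 collagens and 0 of the 10 proteoglycans were called. With TMM factors and library sizes computed without muscle and erythroid genes, 1085 genes were higher and 1666 lower. Leaving these genes out changes the scaling alone and not the mix of tissues, so it does not address the part of muscle.

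Col1a1, the main collagen of bone, tendon and ligament, was at 5770, 6570, 5030 and 6630 CPM in MRL/MpJ and at 8830, 11100, 10600 and 13000 CPM in C57BL/6 (-0.86 ± 0.13, adjusted p 4.65e-05). Col3a1, the collagen of loose and healing connective tissue, was at 885, 767, 795 and 769 CPM against 2720, 2230, 1920 and 3250 CPM (-1.65 ± 0.14, adjusted p 8.34e-08). Col14a1, which binds to the surface of fibrils, had the lowest fold change of the collagens, with 26, 18.1, 22.6 and 17.3 CPM against 86.4, 72.9, 66.3 and 105 CPM (-1.96 ± 0.16). In all 3 genes the strains lay apart.

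Bgn, biglycan, was at 570, 573, 537 and 605 CPM against 1700, 1700, 1600 and 2240 CPM (-1.66 ± 0.14). Dcn, decorin, was at 932, 769, 879 and 794 CPM against 1850, 1780, 1590 and 2190 CPM (-1.14 ± 0.11). Kera, keratocan, was at 19.8, 7.9, 13.4 and 16.3 CPM against 42.6, 45.1, 44.5 and 69.5 CPM (-1.8 ± 0.22). C57BL/6 replicate 4 was the highest library for all 3 genes. These proteoglycans lie in families along the chromosomes. Dcn, Lum, Kera and Epyc follow each other on chromosome 10 (Dcn at chr10:97479500-97518163) and were all lower, although Epyc, which is not in the list, overlapped between the strains. Also lower were Ecm2, Aspn, Omd and Ogn on chromosome 13, which all lie within the span of another listed gene, Cenpp.

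Of 23 genes of the provisional matrix that forms in wounds, 17 were lower and 0 higher (median -0.94). Postn, periostin, was at 239, 208, 208 and 232 CPM against 695, 634, 556 and 723 CPM (-1.56 ± 0.12). Fn1, fibronectin, was at 1080, 952, 1050 and 981 CPM against 2320, 2260, 2080 and 3010 CPM (-1.25 ± 0.14). Loxl2, which cross-links collagen, was at 70.8, 57.8, 60.2 and 67.3 CPM against 175, 195, 166 and 219 CPM (-1.56 ± 0.1, adjusted p 1.24e-09). Tenascin C and thrombospondin 1 were among the 6 members not called (Tnc -0.33, Thbs1 -0.2). Basement membrane genes were lower in 7 of 13, and Lamb1, a laminin chain, was at 41.4, 34.7, 45.3 and 39.4 CPM against 78, 65.1, 59.4 and 81.5 CPM (-0.83 ± 0.12).

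Some enzymes that cut matrix and some of their inhibitors were lower. Of 15 matrix metalloproteinases, 6 were lower and 0 higher, and 0 of the 6 were called with 2 RUVg factors. Mmp2, which cuts denatured collagen, was at 143, 136, 133 and 137 CPM against 367, 317, 301 and 418 CPM (-1.35 ± 0.1). Mmp14, the membrane-bound activator of Mmp2, was at 120, 138, 126 and 150 CPM against 223, 244, 227 and 297 CPM (-0.89 ± 0.11). Mmp3, stromelysin 1, was at 2.51, 2.52, 2.99 and 1.98 CPM against 10.6, 11.6, 6.83 and 14.8 CPM (-2.12 ± 0.38). The metalloproteinases that neutrophils and osteoclasts carry were not called (Mmp8 -0.23, Mmp9 -0.31).

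Of the 12 inhibitors and aggrecanases, 6 were lower. Timp2 was at 253, 216, 231 and 228 CPM against 443, 436, 403 and 515 CPM (-0.95 ± 0.09), and Timp1 at 14.7, 16, 16.6 and 15.5 CPM against 29.6, 29.4, 25.8 and 36.2 CPM (-0.95 ± 0.12). Timp4 was the exception, with 18.3, 14.5, 14.9 and 13 CPM against 8.33, 6.22, 7.55 and 6.11 CPM (1.12 ± 0.14), so that inhibitors of 1 family lay on both sides. Timp1 and Timp4 lie within the spans of Syn1 and Syn2, and whether counting used strand was not given in the sources used here, so reads of such overlapping genes are uncertain. The same holds for Pfkm, Prg4, Scx, Tnc, Col10a1, Ltbp2, Jak3, Cd247, Masp2, Aim2, Cd74, Ciita, Xist, Eno1b, Ceacam2 and Trim12a, whose spans also overlap those of other listed genes.

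Cartilage genes were lower in MRL/MpJ, but 1 C57BL/6 library set the spread. Of 19 cartilage genes listed, 17 were lower and 0 higher (median -1.18). The summed level was 3370 to 5440 CPM in MRL/MpJ. In C57BL/6 it was 4550 CPM in replicate 1 and 8490 to 10900 CPM in the others, so replicate 1 lay within the MRL/MpJ range. Only 9 of the 19 genes were below C57BL/6 in all libraries, against 18.8% of all genes.

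Col2a1, the collagen of hyaline cartilage, was at 1440, 1830, 1210 and 2320 CPM in MRL/MpJ and at 1330, 3750, 3360 and 4260 CPM in C57BL/6 (-0.9 ± 0.27, adjusted p 0.0133). C57BL/6 replicate 1 was the second lowest of the 8 libraries, and without MRL/MpJ replicate 3 the gene was not called (-0.77, adjusted p 0.053). Col10a1, the collagen of hypertrophic chondrocytes, overlapped likewise, with 159, 188, 122 and 269 CPM against 170, 560, 408 and 499 CPM (-1.15 ± 0.26). The direction of both turned with 2 RUVg factors (1.03 and 0.84), and neither was called.

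Of the cartilage genes that did not overlap between the strains, 3 are given here. Acan, aggrecan, was at 200, 220, 208 and 271 CPM against 282, 580, 454 and 637 CPM (-1.12 ± 0.19). Comp, cartilage oligomeric matrix protein, was at 218, 218, 192 and 232 CPM against 329, 515, 444 and 694 CPM (-1.2 ± 0.16). Chad, chondroadherin, was at 228, 242, 206 and 223 CPM against 422, 561, 558 and 746 CPM (-1.35 ± 0.13). In all 3 genes C57BL/6 replicate 1 was the lowest of its group and still above every MRL/MpJ library. Chad lies within the span of Acsf2. With 2 RUVg factors Acan and Comp turned as well (0.66 and 0.24), Chad did not (-0.21), and none of the 3 was called.

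Sox9 and Sox6, transcription factors of chondrocytes, had fold changes of opposite sign, but Sox6 was not called. Sox9, which switches on cartilage matrix genes, was at 11, 11.7, 7.46 and 12.5 CPM against 19, 32, 26.3 and 32.2 CPM (-1.35 ± 0.17, edgeR adjusted p 6.43e-06), and its log2 fold change was -0.06 with 2 RUVg factors. Sox6, its partner, which muscle and red cell precursors also express, averaged 123 CPM in MRL/MpJ and 85.6 CPM in C57BL/6. Its log2 fold change of 0.53 passed the adjusted p (3.59e-05) but not the fold threshold.

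Tendon genes were lower in 5 of 7 (median -1.36). Tnmd, tenomodulin, was at 28.5, 16.7, 21.7 and 20.1 CPM against 77.2, 70, 53.7 and 99 CPM (-1.77 ± 0.21). Scx, scleraxis, the factor that marks tendon cells, was at 3.95, 3.18, 3.81 and 3.46 CPM against 4.34, 5.9, 5.93 and 6.89 CPM (-0.67 ± 0.19), and it was not called without MRL/MpJ replicate 2 (-0.58) or C57BL/6 replicate 4 (-0.58). Synovial fibroblast genes were lower in 6 of 9 (median -0.71). Prg4, lubricin, was at 1270, 920, 1190 and 919 CPM against 2120, 1640, 1460 and 2560 CPM (-0.86 ± 0.21).

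Some bone genes were lower. Of 14 genes of osteoblasts and osteocytes, 6 were lower (median -0.55). Bglap, osteocalcin, was at 392, 381, 336 and 390 CPM against 657, 634, 568 and 830 CPM (-0.84 ± 0.13). With 1 RUVg factor 3 genes of this list were lower, and Bglap was not called (-0.57). Sost, the osteocyte inhibitor of Wnt signals, was at 21.8, 27, 22.2 and 22.7 CPM against 28.6, 47.3, 37.3 and 51.8 CPM (-0.81 ± 0.16). Of 11 osteoclast genes 2 were lower, 1 of them Oscar, a receptor that helps osteoclasts form, at 2.7, 2.96, 1.99 and 2.64 CPM against 5.41, 9.81, 8.72 and 8.93 CPM (-1.65 ± 0.25). Without each of 5 libraries in turn (MRL/MpJ replicates 1, 2 and 3 and C57BL/6 replicates 2 and 3) the count of osteoclast genes was 1. Acp5 and Ctsk, enzymes that define osteoclasts, were not called (-0.18 and -0.31). Sost and Oscar, with 2 RUVg factors, were at 0.51 and 0.01 and not called.

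**Figure D2:**
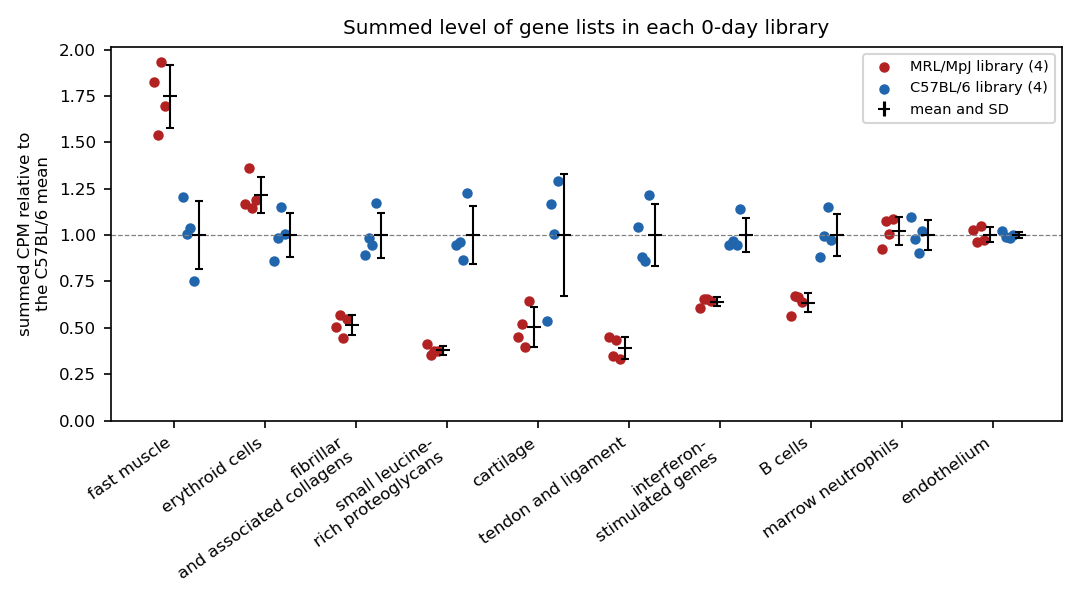
The summed CPM of each gene list in each 0-day library is divided by the mean of the C57BL/6 libraries (vertical axis, linear from 0), with the mean and SD of the 4 libraries per strain. Fast muscle was higher in all 4 MRL/MpJ libraries, and collagens, proteoglycans, tendon, interferon-stimulated and B cell genes were lower in all 4. For cartilage, 1 C57BL/6 library fell among the MRL/MpJ libraries. Erythroid sums overlapped narrowly, and neutrophil and endothelial sums overlapped.

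Signals that guide joint tissue were lower or not called. Of 26 genes of TGF-beta and BMP signalling, 10 were lower and 0 higher (median -0.43). Ltbp2, a fibrillin-binding matrix protein of the latent TGF-beta binding family, had the smallest adjusted p among them and no overlap, at 7.52, 8.12, 8.13 and 7.09 CPM against 29.3, 32.2, 30.3 and 32.1 CPM (-2 ± 0.1, adjusted p 3.08e-11). Bmp4 was at 9.06, 9.43, 7.63 and 8.24 CPM against 16.2, 13.6, 15.3 and 14 CPM (-0.77 ± 0.11). Gdf5, which is needed to form joints, was close to the floor, at 0.193, 0.11, 0.332 and 0 CPM against 0.975, 0.558, 0.359 and 0.485 CPM. Its call (-1.83 ± 0.62, adjusted p 0.027) was lost without MRL/MpJ replicate 1, 2 or 4 (adjusted p 0.0546, 0.0836 and 0.0665) or C57BL/6 replicate 1 (0.091). The ligands Tgfb1 and Bmp2 were not called (-0.29 and -0.41).

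Of 33 Wnt pathway genes, 14 were lower and 0 higher (median -0.45). Sfrp2, a secreted Wnt binder, was at 10.7, 7.35, 6.3 and 8.57 CPM against 31.9, 32.4, 23.2 and 41.4 CPM (-1.94 ± 0.17). Fzd1, a Wnt receptor, was at 8.87, 6.25, 6.63 and 5.28 CPM against 16.9, 13.5, 15.7 and 16.8 CPM (-1.18 ± 0.15). The members called included secreted inhibitors of the Sfrp, Dkk and Wif families as well as receptors, and Axin2, a target of the pathway, was not called (0.33, adjusted p 0.223).

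In the IGF system 4 of 10 genes were lower. Igf1 was at 70.9, 72.5, 73.6 and 73.9 CPM against 130, 108, 86.8 and 159 CPM (-0.73 ± 0.14), with a wide spread in C57BL/6, and was not called without C57BL/6 replicate 4 (-0.57). Igfbp6, a binding protein for IGF2, was at 32.2, 21.3, 21.2 and 18.5 CPM against 68, 55.4, 67.4 and 63.4 CPM (-1.42 ± 0.14). Hif1a, the oxygen-sensing factor, was the called gene among 11 genes of hypoxia and cell cycle arrest, at 92.7, 82.9, 88.6 and 95.8 CPM against 138, 147, 128 and 171 CPM (-0.7 ± 0.09). It was not called with 2 RUVg factors (-0.04) or by glmTreat. Vegfa and Egln3, known targets of this factor, lay just under the fold threshold (0.53 and 0.58). No gene of the list was called higher, but 1 was with DESeq2 or with the 8 libraries alone, and 2 were without MRL/MpJ replicate 2.

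Blood and immune cells of the joint differed by lineage. Of 15 genes of marrow neutrophils, 1 was called, and their median was 0.04. That gene, Chil3, a chitinase-like protein, was at 211, 229, 195 and 216 CPM against 758, 718, 644 and 791 CPM (-1.77 ± 0.09, adjusted p 1.21e-10), while S100a9 and Ngp, 2 of the most abundant neutrophil genes, were not called (0.04 and 0.2). Of 11 endothelial genes 0 were called (median 0.01).

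B cell genes were lower in 11 of 15 and higher in 1 (median -0.85), and 0 of these 12 were called with 2 RUVg factors. Rag1, the recombinase of B cell precursors in marrow, was at 23.4, 25.1, 24.7 and 23.6 CPM against 48.4, 73.5, 83.1 and 61.8 CPM (-1.46 ± 0.15). Jchain, which joins secreted immunoglobulins, went the other way, at 47.2, 64.8, 80.1 and 73.7 CPM against 40.7, 22.9, 26.9 and 21.7 CPM (1.23 ± 0.19). In each of these genes the strains did not overlap.

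T cell genes were low and had a median of 0.17 over 18 genes, of which 3 were higher and 1 lower. The higher 3 were Cd3d, Cd4 and Jak3. Cd3d was at 23.9, 24.6, 27.7 and 26.2 CPM against 10.1, 5.9, 5.93 and 5.24 CPM (1.9 ± 0.19). Other chains of the same receptor complex were not called (Cd3e 0.12, Cd3g -0.05 and Cd247 0.16). Cd4 was at 19.8, 21.7, 23.4 and 20.8 CPM against 13.4, 12.1, 15.6 and 13 CPM (0.66 ± 0.1), and Jak3, a kinase of cytokine receptors, at 22.5, 26.4, 21.6 and 21.3 CPM against 16.8, 13.2, 15.2 and 13.5 CPM (0.65 ± 0.11). Scaled by housekeeping genes, neither was called (0.58 and 0.57). The lower gene, Icos, was under 1.4 CPM in every library and was not called without MRL/MpJ replicate 1 or 3 or C57BL/6 replicate 3.

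Macrophage genes were lower in 7 of 13 and higher in 2. Adgre1, the F4/80 antigen, was at 32.5, 39.7, 39.5 and 31.5 CPM against 60.1, 53.8, 55.6 and 61.7 CPM (-0.69 ± 0.09). Lyve1, a hyaluronan receptor on tissue macrophages and lymph vessels, was at 14.8, 11.2, 13.3 and 13 CPM against 40.7, 35.2, 27.9 and 39.6 CPM (-1.45 ± 0.14). Ccr2, which brings monocytes into tissue, was at 83.5, 88, 82.1 and 92.5 CPM against 160, 150, 151 and 151 CPM (-0.82 ± 0.08). Csf1r, the receptor for CSF1, lay at the fold threshold (-0.59 ± 0.08) and was not called without MRL/MpJ replicate 1, 3 or 4 or C57BL/6 replicate 3 or 4 (-0.58 to -0.56). Timd4, which binds the surface of dying cells, was higher, at 29.4, 29, 24.4 and 23.6 CPM against 7.89, 6.7, 7.1 and 7.28 CPM (1.89 ± 0.11).

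Mast cell proteases were divided. Cma1 and Mcpt4, chymases of connective tissue mast cells, were lower. Mcpt4 was at 3.18, 1.54, 3.15 and 2.64 CPM against 7, 5.18, 5.03 and 5.44 CPM (-1.12 ± 0.22), and Cma1 at 3.18, 1.21, 2.65 and 1.81 CPM against 7, 5.03, 3.86 and 5.24 CPM (-1.24 ± 0.29). Tpsab1, a tryptase that the annotation lists as a transcribed pseudogene of the reference strain, was at 1.54, 0.768, 0.829 and 0.824 CPM against 0, 0.16, 0 and 0.0971 CPM. The ratio of the summed levels was 15.8 (95% counting interval 4.94 to 80.3), and without C57BL/6 replicate 2 the log2 fold change moved from 3.72 to 4.56. Without MRL/MpJ replicate 2 or C57BL/6 replicate 1, 2 rather than 4 of the 10 mast cell genes were lower.

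Complement genes were lower in 10 of 24 and higher in 3. C4b, a component of the classical pathway, was at 10.6, 8.56, 8.79 and 9.4 CPM against 93.1, 67.6, 67.8 and 97.7 CPM (-3.11 ± 0.15, adjusted p 3.3e-11). Its near-identical neighbour C4a was higher, at 0.868, 1.54, 1.99 and 0.495 CPM against 0.177, 0.0798, 0.359 and 0.388 CPM (2.25 ± 0.5), and the split of reads between these copies is uncertain. Cd59a, which blocks the final attack complex on cells, was at 139, 142, 135 and 146 CPM against 75, 69, 85 and 61.8 CPM (0.95 ± 0.13). Masp2, a protease of the lectin pathway, had 0 counts in all 4 C57BL/6 libraries and was at least 16.7-fold higher in MRL/MpJ.

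Levels of inflammatory cytokines and chemokines ranged widely. Cxcl12, a chemokine that holds blood stem cells in marrow, averaged 798 CPM in MRL/MpJ and 699 CPM in C57BL/6 and was not called (0.19). Of 22 listed, 5 were lower, and the count was 2 without MRL/MpJ replicate 2 and 3 without C57BL/6 replicate 4, where 2 others were higher. Ccl8, which attracts monocytes, was at 0.0964, 0.219, 0.166 and 0.495 CPM against 3.64, 1.28, 2.7 and 2.81 CPM (-3.46 ± 0.5). Cxcl1, which attracts neutrophils, had 0 counts in all MRL/MpJ libraries and a mean of 0.397 CPM in C57BL/6, at least 4.19-fold lower, and was not called (adjusted p 0.0938). Tnf and Il6 were not called either (adjusted p 0.0772 and 0.972).

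Interferon-stimulated genes were lower in MRL/MpJ joints. Of 34 listed, 24 were lower and 1 was higher (median -0.94). The summed level of these genes did not overlap between the strains, as the plot of list sums shows. Promoters of some of them are given here because interferon signals act through a short element in them. The element is approximated by GAAA, any 2 bases and GAAA again, on either strand. RefSeq windows of 300 bases (250 before and 50 after the start that the window table uses, GRCm38.p6, which for the genes printed here other than Isg15 lies within the annotated span) were searched, and 14 of the 26 listed genes with a window held it (53.8%), against 3.99% of all genes with a window. The motif stood in 0 of 13 fast muscle and 0 of 14 cartilage windows. Over all genes with a window, 6.84% of those called lower, 2.67% of those called higher and 3.56% of those not called held it. Within the list the motif did not separate the calls. Oasl1, Irf7, Irf9 and Xaf1 were among the lower genes without it, and Ifitm2, Rsad2, Stat2 and Gbp3 held it and were not called. A link between motif and level was not tested. The 250 bases before the start follow for 3 lower genes that hold it, written 5′ to 3′ in the direction of the gene with each match in capitals (overlapping matches run together), and for 3 genes of the Trim5 cluster described further on.
Oas1a (chr5:120907526-120907775, minus strand): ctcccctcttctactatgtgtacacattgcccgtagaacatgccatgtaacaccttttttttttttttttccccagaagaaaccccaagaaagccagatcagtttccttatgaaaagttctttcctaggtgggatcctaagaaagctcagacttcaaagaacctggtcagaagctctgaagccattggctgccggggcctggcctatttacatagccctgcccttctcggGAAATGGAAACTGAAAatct
Isg15 (chr4:156200819-156201068, minus strand): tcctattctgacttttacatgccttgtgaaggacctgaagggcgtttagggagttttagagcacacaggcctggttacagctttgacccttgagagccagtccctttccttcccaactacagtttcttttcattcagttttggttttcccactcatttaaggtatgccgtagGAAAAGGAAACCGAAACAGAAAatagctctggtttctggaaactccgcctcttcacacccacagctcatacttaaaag
Ifit3 (chr19:34583279-34583528, plus strand): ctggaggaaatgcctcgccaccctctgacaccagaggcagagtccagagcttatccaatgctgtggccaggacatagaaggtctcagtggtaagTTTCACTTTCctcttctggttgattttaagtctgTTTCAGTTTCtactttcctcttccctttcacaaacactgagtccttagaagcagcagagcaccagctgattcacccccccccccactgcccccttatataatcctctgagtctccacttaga
Trim12a (chr7:104315496-104315745, minus strand): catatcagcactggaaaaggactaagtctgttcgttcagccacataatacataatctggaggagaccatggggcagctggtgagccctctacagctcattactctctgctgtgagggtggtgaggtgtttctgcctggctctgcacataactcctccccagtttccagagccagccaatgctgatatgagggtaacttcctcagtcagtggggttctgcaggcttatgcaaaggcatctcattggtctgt
Trim12c (chr7:104353350-104353599, minus strand): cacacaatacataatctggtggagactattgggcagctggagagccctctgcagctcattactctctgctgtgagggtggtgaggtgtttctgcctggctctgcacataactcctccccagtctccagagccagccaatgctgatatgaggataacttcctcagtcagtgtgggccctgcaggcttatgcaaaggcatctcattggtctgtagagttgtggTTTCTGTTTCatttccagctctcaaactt
Trim30d (chr7:104507850-104508099, minus strand): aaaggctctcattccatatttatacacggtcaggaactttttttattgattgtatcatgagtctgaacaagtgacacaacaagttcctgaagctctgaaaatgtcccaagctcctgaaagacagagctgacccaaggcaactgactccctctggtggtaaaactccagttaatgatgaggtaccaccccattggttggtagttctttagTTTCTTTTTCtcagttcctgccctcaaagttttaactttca

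Oas1a, an enzyme that senses double-stranded RNA, was at 0.964, 1.1, 2.16 and 1.81 CPM in MRL/MpJ and at 7.27, 6.06, 8.54 and 6.79 CPM in C57BL/6 (-2.33 ± 0.22, adjusted p 2.58e-07). Isg15, a ubiquitin-like modifier, was at 13.7, 13.7, 13.1 and 14.2 CPM against 39.8, 47.9, 50.2 and 58.9 CPM (-1.84 ± 0.13, adjusted p 4.57e-09). Ifit3, which binds foreign RNA with its relatives, was at 1.16, 1.54, 2.16 and 2.97 CPM against 7.63, 10.8, 8.18 and 12.4 CPM (-2.41 ± 0.24). All MRL/MpJ libraries were below all C57BL/6 libraries for each of them.

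Oasl2, which lacks the motif in its window, had the lowest fold change of the list, at 3.86, 3.4, 3.81 and 4.45 CPM against 30.3, 34.6, 31.6 and 43.1 CPM (-3.18 ± 0.14, adjusted p 5.41e-12). Irf7, a factor that carries interferon signals to these genes, was at 11.8, 12.6, 14.4 and 14.3 CPM against 30.1, 28.6, 27.2 and 38.6 CPM (-1.24 ± 0.13). Irf1, Ifit2 and Gbp3 were among the members not called (-0.08, -0.3 and -0.05).

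Ifi44l was the member that was higher, and it was all but absent from C57BL/6. It was at 2.41, 2.41, 2.82 and 2.47 CPM in MRL/MpJ and at 0, 0, 0.0899 and 0 CPM in C57BL/6. The ratio of the summed levels was 113, with a 95% counting interval of 19.7 to 4530, and without C57BL/6 replicate 3 the log2 fold change moved from 6.16 to 7.57. With 2 RUVg factors, 7 of the 24 lower genes were still called.

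**Figure D3:**
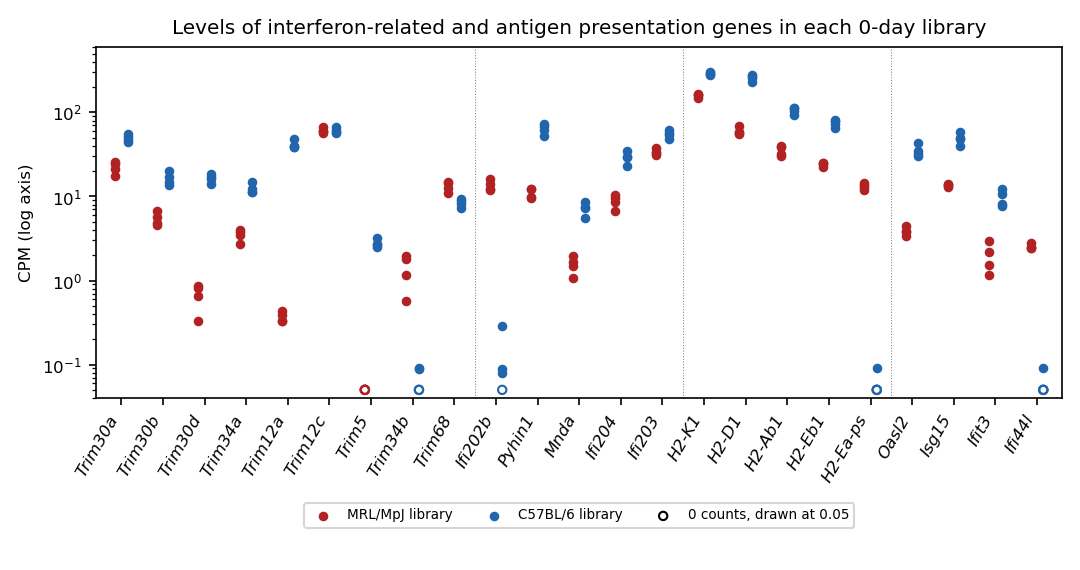
Each point is the level of a gene in 1 of the 8 0-day libraries in CPM on a log axis, with 0 counts drawn as open circles at 0.05; dotted lines separate the Trim5 cluster, the Ifi200 family, MHC genes and interferon-stimulated genes. Trim5 was at 0 in MRL/MpJ and near 3 CPM in C57BL/6, Trim12c lay between 56.9 and 67.5 CPM over both strains, and H2-Ea-ps and Ifi202b were above 11 CPM in MRL/MpJ and under 0.3 CPM in C57BL/6.

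The Trim5 cluster on chromosome 7 encodes proteins that restrict retroviruses. Of 12 genes of this cluster and its relatives, 6 were lower, 3 higher and 3 not called, and with 2 RUVg factors the 6 lower genes were all called as well but 0 of the 3 higher genes were. Trim12a (chr7:104299893-104315558) was at 0.386, 0.439, 0.332 and 0.33 CPM against 38.9, 40.2, 38.9 and 48.2 CPM (-6.72 ± 0.19, adjusted p 8.89e-15), the second smallest adjusted p of all lower genes being that of Hba-a2. Trim30d was at 0.868, 0.658, 0.332 and 0.824 CPM against 16.3, 16.9, 13.9 and 18.6 CPM (-4.54 ± 0.21). Trim5 itself had 0 counts in all MRL/MpJ libraries and 3.19, 2.47, 2.7 and 2.62 CPM in C57BL/6, at least 28.9-fold lower.

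Trim12c, the close relative of Trim12a, averaged 60.6 CPM in MRL/MpJ and 60.9 CPM in C57BL/6 and was not called (-0.01, adjusted p 0.944). Aligned at 1 offset without gaps, the promoter windows of the pair printed above match at 172 of 210 bases (81.9%) of the reference genome. The windows differ by an inserted base, which puts the bases after it out of register, so this share understates their likeness. The windows of both hold the motif, but that of Trim12a has it after the start used for its window, outside the 250 bases shown. Trim34b went the other way, at 0.578, 1.97, 1.16 and 1.81 CPM against 0.0887, 0, 0.0899 and 0 CPM, a ratio of 30.1 (95% counting interval 7.83 to 257), and Trim68 was at 12.5, 14.5, 14.9 and 10.9 CPM against 8.78, 7.26, 8.09 and 9.22 CPM (0.67 ± 0.14). Neither was called with 2 RUVg factors (1.07 and 0.45). The authors aligned all reads to the genome of C57BL/6J (mm10). A lower count in MRL/MpJ from less transcript and one from reads that fail to align where the strains differ in sequence cannot be told apart, here and in all genes below that differ between near-identical copies.

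The Ifi200 family of DNA sensors on chromosome 1 was lower in 6 of 9 genes and higher in 1. Ifi202b was at 12.1, 11.8, 14.1 and 16.3 CPM in MRL/MpJ and at 0.0887, 0.0798, 0 and 0.291 CPM in C57BL/6 (6.76 ± 0.28, adjusted p 2.33e-12), and without C57BL/6 replicate 4 the log2 fold change was 7.57. Pyhin1 was at 12.2, 9.54, 9.79 and 12.2 CPM against 51.9, 68, 61.7 and 72.1 CPM (-2.53 ± 0.14). Mnda was at 1.06, 1.97, 1.66 and 1.48 CPM against 8.51, 7.26, 5.57 and 7.47 CPM (-2.23 ± 0.25). Aim2, the inflammasome sensor of the family, was not called (-0.12).

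MHC genes lay on both sides. Of 22 genes of class I and its loading machinery, 6 were lower and 3 higher. H2-D1 was at 55.6, 68.9, 58.4 and 56.4 CPM against 272, 232, 259 and 276 CPM (-2.12 ± 0.09, adjusted p 2.11e-12). H2-K1 was at 150, 167, 159 and 160 CPM against 295, 281, 290 and 305 CPM (-0.88 ± 0.07). H2-Q1, a nonclassical gene, was higher, at 3.18, 3.29, 1.99 and 4.12 CPM against 0.798, 0.558, 0.809 and 0.0971 CPM (2.44 ± 0.36). Tap1, which carries peptides to class I, was lower as well, at 23.4, 23.6, 23.7 and 18.6 CPM against 35.7, 34.9, 38.2 and 39.9 CPM (-0.73 ± 0.1).

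In class II, 3 of 12 genes were lower and 1 was higher. H2-Ab1 was at 30.6, 38.8, 31.7 and 40.1 CPM against 105, 94, 114 and 112 CPM (-1.59 ± 0.13), and H2-Eb1 at 22.7, 25.3, 24.4 and 24.7 CPM against 80.5, 65.7, 72.5 and 78 CPM (-1.61 ± 0.09). H2-Ea-ps, the E alpha gene that the reference strain does not express, was at 11.8, 12.9, 13.8 and 14.3 CPM against 0, 0, 0.0899 and 0 CPM. The ratio was 587, with a 95% counting interval of 105 to 23300, and the log2 fold change moved from 8.55 to 9.95 without C57BL/6 replicate 3. Cd74 and Ciita, the chaperone and the regulator of class II genes, were not called (-0.41 and -0.46).

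Other differences lay in runs of neighbouring genes. Of 16660 genes with a position, taken in order along the chromosomes, 2 runs held 5 neighbours called in the same direction, and 8 runs held 4. One of the longest was the apolipoprotein L cluster on chromosome 15 (Apol10a, Apol11a, Apol10b, Gm8221 and Apol11b), where Apol10a was at 0.289, 0.549, 0.829 and 0 CPM against 4.43, 5.9, 6.11 and 7.57 CPM (-3.82 ± 0.35). The other was made of protocadherin gamma genes on chromosome 18, whose annotated spans overlap, so that their counts are uncertain. Runs of 4 included the fast myosin cluster on chromosome 11 (2310065F04Rik, Myh2, Myh1 and Myh4), which was higher, and Ms4a14, Ms4a7, Ms4a4a and Ms4a4c on chromosome 19, which were lower.

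Immunoglobulin heavy and kappa chain segments were called in both directions. Of 86 heavy chain segments and constant regions, 21 were higher and 21 lower (48.8%), and of 88 kappa chain segments 18 were higher and 18 lower (40.9%), against 15.9% of all genes. Of 6 lambda chain segments 0 were higher and 1 lower, and of 3 T cell receptor segments 1 was higher and 0 lower. The summed level of heavy chains overlapped between the strains, at 40.9 to 70.2 CPM and 41.7 to 81.5 CPM. Ighv4-1 had 0 counts in MRL/MpJ and 35.8, 5.98, 1.89 and 2.23 CPM in C57BL/6, at least 122-fold lower. C57BL/6 replicate 1 held most of its counts, and without that library the level was at least 36.9-fold lower.

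Several of the largest fold changes were in genes that have near-identical copies. Gm8210, a pseudogene within the span of Fhl2, was at 116, 123, 109 and 136 CPM against 0, 0.239, 0.18 and 0.291 CPM (9.31 ± 0.19, adjusted p 1.11e-16). The pseudogenes Gm5177 (4.19), Gm5779 (5.6) and Hmgb1-rs17 (3.25) and the enolase copy Eno1b (4.76; 5.45 without C57BL/6 replicate 1) were higher as well. Reads of such copies can come from their parent genes where strains differ in sequence, so these values are uncertain.

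Among the other genes with the smallest adjusted p, Ceacam2, an adhesion molecule, was at 27.8, 32.5, 33.3 and 36.8 CPM against 0.266, 0.638, 0.27 and 0.291 CPM (6.38 ± 0.21). C130026I21Rik was higher (4.17 ± 0.11), the noncoding transcript 2610507I01Rik was lower (-3.2 ± 0.12), and the zinc finger gene Zfp949 was higher (2.14 ± 0.08). Capg, an actin-capping protein of macrophages and other cells, was at 9.54, 12.1, 10.6 and 10.4 CPM against 71.4, 63.2, 65.8 and 76.5 CPM (-2.7 ± 0.11, adjusted p 2.62e-12).

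C1qtnf3, a secreted protein that cartilage makes, was at 7.33, 4.5, 6.47 and 6.26 CPM against 118, 65.6, 73.4 and 115 CPM (-3.92 ± 0.24). Mamdc2, a matrix proteoglycan, was at 1.06, 0.11, 0.166 and 0.495 CPM against 22, 27, 23.4 and 30.5 CPM (-5.63 ± 0.28; -6.69 without MRL/MpJ replicate 1). For these 2 genes the groups lay far apart, and the spread within MRL/MpJ was small against the difference.

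Red cell genes were higher in MRL/MpJ. Of 13 erythroid genes, 7 were higher and 1 lower (median 0.59). Scaled by housekeeping genes, 4 were higher, by glmTreat 3, and with 2 RUVg factors 2. In 11 of the 13 every MRL/MpJ library was above every C57BL/6 library, and in 1 every one was below. The summed level of the list overlapped narrowly, at 7200 to 8520 CPM in MRL/MpJ and 5400 to 7210 CPM in C57BL/6. Car1, a carbonic anhydrase of red cells, was at 293, 317, 244 and 292 CPM against 93.5, 107, 123 and 101 CPM (1.43 ± 0.13).

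Globin counts followed the copies that the annotation names. Hba-a2 was at 4.63, 3.29, 2.16 and 4.12 CPM in MRL/MpJ and at 998, 1460, 1940 and 1480 CPM in C57BL/6 (-8.65 ± 0.25, adjusted p 9.9e-15). Hbb-bs was at 184, 325, 260 and 247 CPM against 87.9, 79.6, 120 and 79.6 CPM (1.47 ± 0.24). Hba-a1, the near-identical partner of Hba-a2, and the other adult beta globin copies were not among the genes of the table, so the total level of globin is uncertain.

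Of 10 enzymes of haem synthesis, 2 were higher and 1 lower. Alad, whose gene copy number is known to differ between mouse strains, was at 248, 303, 242 and 244 CPM against 42.9, 43.6, 52.2 and 50 CPM (2.46 ± 0.1, adjusted p 1.19e-12). Fech, the last enzyme, was at 541, 628, 512 and 489 CPM against 333, 310, 386 and 329 CPM (0.68 ± 0.09). Cpox was lower, at 164, 194, 160 and 170 CPM against 259, 292, 338 and 312 CPM (-0.8 ± 0.09).

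Of 21 enzymes and proteins that handle oxidants, 2 were higher and 2 lower (median 0.21), against 6.26% and 9.64% of all genes. In 10 of the 21 every MRL/MpJ library was above every C57BL/6 library, against 15.7% of all genes, and in 4 every one was below, against 18.8%. Nnt, the mitochondrial transhydrogenase that is partly deleted in C57BL/6J, was at 129, 112, 104 and 110 CPM against 38.5, 40, 40.3 and 37.8 CPM (1.54 ± 0.08, adjusted p 1.45e-10). Gsta4, which detoxifies lipid peroxidation products, was at 21.2, 17.7, 19.9 and 18.5 CPM against 10, 9.01, 9.89 and 6.11 CPM (1.14 ± 0.13).

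The extracellular enzymes were lower. Gpx3 was at 181, 177, 163 and 177 CPM against 366, 381, 363 and 430 CPM (-1.14 ± 0.08), and Sod3 at 58.5, 44.3, 53.6 and 38.1 CPM against 113, 92.4, 89.2 and 145 CPM (-1.17 ± 0.16). Gsr, glutathione reductase, which is not in the list, was at 91.1, 99.9, 95.2 and 94.6 CPM against 281, 245, 255 and 265 CPM (-1.46 ± 0.07, adjusted p 2.17e-11). Glo1, a glyoxalase known to be duplicated in some strains, was at 209, 181, 212 and 190 CPM against 88, 83.9, 82.7 and 80.5 CPM (1.24 ± 0.07).

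Genes of cell division, stress and daily rhythm passed the threshold rarely. Of 19 proliferation genes 0 were called (median 0.21), but 18 had a log2 fold change above 0, and 10 passed the adjusted p of the edgeR test alone. Their summed level was 4720 to 5440 CPM in MRL/MpJ and 3610 to 4220 CPM in C57BL/6, without overlap. Of 10 heat shock genes 0 were called (0.12), and of 16 circadian clock genes 0 (-0.03), with at most 1 in each direction when single libraries were left out. Of 78 cytoplasmic ribosomal protein genes 2 were lower, and their median was 0.05. The count was 1 with DESeq2 and without any of MRL/MpJ replicates 3 and 4 and C57BL/6 replicates 3 and 4. Of 18 immediate early genes 2 were lower, 1 of them Klf4, at 60, 52.7, 61 and 54.9 CPM against 109, 106, 93.8 and 119 CPM (-0.9 ± 0.08). The other was Fosb, whose call was lost without any of MRL/MpJ replicates 2, 3 and 4 and C57BL/6 replicates 2 and 3. White fat genes were lower in 5 of 14, and Retn, resistin, was at 4.72, 4.94, 6.47 and 6.43 CPM against 31.2, 20, 17.6 and 34 CPM (-2.22 ± 0.22). Of 6 brown fat genes 1 was higher and 1 lower (median 0.95), and their summed level overlapped, at 42 to 53.4 CPM and 42.1 to 58.6 CPM. The higher count was 2 with DESeq2 and 3 with the 8 libraries alone.

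Uninjured contralateral knees of later time points gave the same contrast in separate libraries. These animals had the other knee injured, and the 2-weeks libraries belong to experimental batch 2 in the labels, so strain differences are given side by side and were not tested between times. MRL/MpJ differed from C57BL/6 in 14.8% of genes at 1-day (5 and 5 libraries; 5.81% higher, and 1558 of 17310 genes lower). It differed in 8.53% at 1-week (4 and 5 libraries; 4.00% higher and 4.53% lower) and in 9.83% at 2-weeks (5 and 5 libraries; 3.82% higher and 6.01% lower). Of the 1083 genes higher at 0-day, 60.9% were also called higher at 1-day, 42.2% at 1-week and 38.6% at 2-weeks, and 312 were called at all 3. Of the 1668 lower genes, 66.3%, 35.5% and 41.6% were also called lower, and 435 at all 3.

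**Figure D4:**
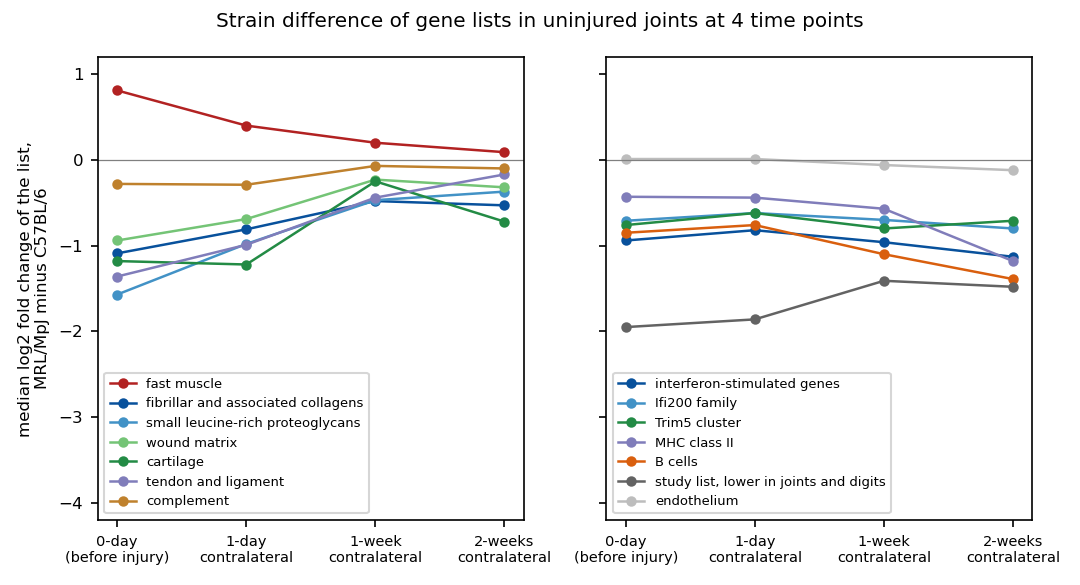
The median log2 fold change of each gene list (MRL/MpJ minus C57BL/6, vertical axis) is drawn for 0-day joints and for the later contralateral knees, with lines only to guide the eye between separate libraries. In the left panel the fast muscle, collagen, proteoglycan, wound matrix, cartilage and tendon lists lie closer to 0 at 2-weeks than at 0-day, with cartilage at -1.18 and -0.72, while interferon-stimulated, Trim5 cluster and B cell lists in the right panel stay at or below -0.6.

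For fast muscle genes and small leucine-rich proteoglycans the medians lay closer to 0 at each later time. The median of the fast muscle genes was 0.81 at 0-day, 0.4 at 1-day, 0.2 at 1-week and 0.09 at 2-weeks, and 14, 4, 0 and 0 of the 16 genes were called higher. Slow muscle genes had medians of 0.89, 0.16, -0.99 and -0.15, with 3 of 9 higher at 0-day and 0 later, and 5 lower at 1-week. The median of the small leucine-rich proteoglycans was -1.57, -0.98, -0.47 and -0.37, and 10, 9, 1 and 3 of the 10 genes were lower. For Dcn the log2 fold change was -1.14 at 0-day and -0.87, -0.14 and 0.06 at the later times. For Tnmd it was -1.77 and then -1.14, -0.47 and 0.02.

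Cartilage genes were lower again at 1-day and 2-weeks but not at 1-week. Their median was -1.22, -0.25 and -0.72, and 17, 1 and 13 of 19 genes were lower. Col10a1 had log2 fold changes of -1.22, -0.44 and -1.15 and Acan of -0.98, -0.31 and -0.62, of which those at 1-week were not called.

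Interferon-stimulated genes were lower at every time, in 20, 23 and 24 of 34 genes over the 3 later times, with medians of -0.82, -0.96 and -1.13. For Oasl2 the log2 fold changes were -2.72, -3.01 and -3.46. B cell genes were lower in 14, 12 and 13 of 15 genes, with medians of -0.76, -1.1 and -1.39. For Trim12a the values were -6.63, -6.35 and -7.17, and for Nnt 1.67, 1.4 and 1.77.

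Some single genes of the matrix were called at each later time. Of the 23 wound matrix genes 13, 3 and 7 were lower, and of the 26 TGF-beta and BMP genes 7, 1 and 1. Loxl2 was lower at each later time (-1.16, -0.77 and -1.04), as were Postn (-0.69, -1.13 and -0.99) and Ltbp2 (-1.52, -1.54 and -1.49). Chil3 was lower at each time (-1.66, -1.89 and -1.77), and Timd4 was higher at each (2.06, 2.66 and 2.66). The pseudogenes Gm5177 and Hmgb1-rs17 had 3.71 and 3.45 at 1-day, 3.54 and 3.08 at 1-week and 0.24 and 0.76 at 2-weeks, where the batch differs.

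The study names sets of genes that set MRL/MpJ apart from both other strains, and it chose them on these samples, so their direction here is not independent evidence. The 18 genes listed here as lower at 0-day were all lower and the 3 listed as higher were all higher against C57BL/6, and with 2 RUVg factors 2 of the 18 and 0 of the 3 were called. These lists do not hold every gene that the study describes as low in MRL/MpJ joints. Of 7 inflammatory and apoptosis genes outside them, Id3 was lower (-0.73), while Il1b, Il6, Ccl2, Cxcl1, Fos and Jun were not called. The study describes these genes as having their lowest level in MRL/MpJ, and a gene not called can still lie in that direction. Of its genes for joints and digits, the 5 listed as higher were all higher (median 2.51) and the 16 listed as lower were all lower (median -1.95). With 2 RUVg factors 3 of the 5 and 11 of the 16 were called. B4galnt2, a glycosyltransferase, was at 21, 16.3, 19.6 and 20.4 CPM against 4.26, 2.87, 3.06 and 3.4 CPM (2.51 ± 0.18). At the later times it had log2 fold changes of 1.76, 1.89 and 1.95, and all 5 genes were called higher at each.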

How the data were processed

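Poly(A)-enriched RNA of knee joints was sequenced, and the authors deposited 1 table of raw read counts per RefSeq gene, made with TopHat2 2.0.11 on mm10 and featureCounts per the submitters' processing notes and the study's methods. Whether counting used strand was not given in the sources used here. The table has 17313 rows and 3 repeated rows were dropped; 24 gene names looked like dates. Columns were matched to samples by their names.

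The counts were fitted with edgeR 4.0.16 in R 4.3.3 (TMM, quasi-likelihood test, 12 libraries of the 3 strains at 0-day in 1 fit, so that they share 1 estimate of spread). A gene was called at a Benjamini-Hochberg adjusted p below 0.05 and a fold above 1.5. The filter (2 counts in at least 5 libraries) removed 0 genes. Errors of log2 fold changes are SE. Later contralateral knees were fitted per time. Floors are 3 counts over a group, and 95% intervals cover counting error only. Totals per library are given in the text. No library pair was identical. On simulated counts for the 0-day comparison (17310 genes), 85 of 100 genes changed 2-fold and 95 of 100 changed 4-fold were called, with 3 false calls of 17110.

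Gene lists (53, with 870 of 888 entries in the table) and members were chosen with earlier results of these data known. Genes named are, in each direction, the top 10 by adjusted p and the top 10 by fold (at 5 CPM or more in the higher strain), members of the lists, and genes of the longest runs of neighbours; which list members are described, and any other gene named, was chosen after their values were seen. Positions and promoter windows come from RefSeq (GRCm38.p6; 16660 genes had a position). DESeq2 1.42.0, limma 3.58.1, other scalings, RUVg, filters and leaving out each library were tried as alternatives. Values of some list members are not reported here.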

Additional observations from a re-analysis of the deposited data

Results flagged for a closer look

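In 18 of 337 groups of 4 libraries examined, 1 library stood far from the others by Dixon's ratio (critical value 0.829). Chance flags about 1 in 20 groups. C57BL/6 replicate 4 was high for Bgn (2240 CPM, others 1600 to 1700), Kera (69.5 CPM, others 42.6 to 45.1), Trim12a (48.2 CPM, others 38.9 to 40.2) and the summed brown fat genes (58.6 CPM, others 42.1 to 44.7). C57BL/6 replicate 3 was high for Tnnt1 (34.2 CPM, others 21.5 to 23.1) and Cd247 (3.24 CPM, others 1.36 to 1.6), and it held the only counts of Ifi44l and H2-Ea-ps in that strain (0.0899 CPM each). C57BL/6 replicate 1 was high for Cd3d (10.1 CPM, others 5.24 to 5.93), Ccr2 (160 CPM, others 150 to 151) and Ighv4-1 (35.8 CPM, others 1.89 to 5.98), and C57BL/6 replicate 2 for Ceacam2 (0.638 CPM, others 0.266 to 0.291).

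Among the MRL/MpJ libraries, replicate 1 was high for Tpsab1 (1.54 CPM, others 0.768 to 0.829) and Egln3 (38.9 CPM, others 27.9 to 29.5) and low for Cd74 (130 CPM, others 146 to 148). Replicate 2 was high for Alad (303 CPM, others 242 to 248), replicate 3 for Ifi44l (2.82 CPM, others 2.41 to 2.47), and replicate 4 was low for Tap1 (18.6 CPM, others 23.4 to 23.7).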

How the results depend on the processing

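Calls depended most on RUVg with 2 factors (103 higher, 187 lower, 59 list members called) and on the threshold. A test against the fold threshold (glmTreat) gave 383 higher, 654 lower and 170 list members; a fold above 2 gave 484, 776 and 165; adjusted p alone gave 2707, 3204 and 494. Log2 fold changes turned with 2 RUVg factors for Myl3 (-0.23), Col2a1 (1.03), Acan (0.66), Comp (0.24), Col10a1 (0.84), Sost (0.51) and Oscar (0.01). Other scalings, tools and filters kept the counts within 1.5 times, and the share of higher calls ran from 30.8% (housekeeping scaling, 873 higher and 1961 lower) to 44.3% (1 fit of all 100 libraries). Leaving out each library gave 910 to 1186 higher, 1436 to 1681 lower and 290 to 321 list members; at 1-day 909 to 1112 and 1421 to 1582, at 1-week 599 to 696 and 693 to 780, and at 2-weeks 621 to 666 and 968 to 1038.

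With a replicate block 1055 genes were higher and 1644 lower. Replicate numbers do not pair the samples: 1 of 4 pairs correlated above 0.1 (-0.074 to 0.141), and 2 of 4 MRL/MpJ libraries lay closest to their own number. Genes near 0 counts are limited by depth.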

Other observations

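A few genes lay apart between the strains in opposite ways at 0-day and in later contralateral knees, in 2 genes at 1-day, 19 at 1-week and 21 at 2-weeks; differences between times were not tested, and the genes named here were chosen after their values were seen. Csrp3, a protein of the muscle Z-disc, had a log2 fold change of 1.11 at 0-day and -0.84 at 1-week. Ackr3, a chemokine receptor, had -0.93 and 0.25. Ppara, a regulator of fatty acid use, had 1.19 at 0-day and -0.39 at 2-weeks. The 54 genes with 0 counts in all 4 libraries of 1 strain and counts in all of the other included 41 at 0 in MRL/MpJ. Some of them, such as Cxcl1, were not called. A count of 0 allows a higher level in MRL/MpJ than in C57BL/6 (0.095 and 0.0663 CPM). Reads were also aligned to the C57BL/6J genome, so the 2 numbers are not on equal terms.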
